A study of Mus musculus with 13 samples.

Results

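Nkx2.2 and Nkx6.1, a pair of homeodomain transcription factors, were both called at 316 regions of the mouse genome where no peak of Olig2 was called. These regions were chosen by measured values, namely the authors' peak lists: peaks of Nkx2.2, Nkx6.1 and Olig2 that shared at least 1 bp were joined into regions, and a region was kept where it held a peak of Nkx2.2 and a peak of Nkx6.1 and none of Olig2. The 316 regions are 1.76% of the 17913 regions that the 3 lists form. They are 5.86% of the 5391 regions with Nkx2.2 and 7.81% of the 4046 regions with Nkx6.1. Of the 866 regions that hold both homeodomain factors, 36.5% are without an Olig2 peak, and the other 550 hold all 3 factors.

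In the developing neural tube, Sonic hedgehog from the floor plate sets up progenitor domains, and Nkx2.2, Nkx6.1 and Olig2 are induced by it in ventral domains. Nkx2.2 and Nkx6.1 bind DNA through a homeodomain, and Olig2 through a basic helix-loop-helix domain. All of them are known as repressors that keep the programmes of other domains off: Nkx2.2 marks the progenitors of V3 interneurons, Olig2 those of motor neurons, and Nkx6.1 is present across both of these domains and the V2 domain above them. Gli3 is a zinc finger factor of the same pathway that is processed into a repressor when the hedgehog signal is absent.

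Binding of the ventral factors was read by ChIP-seq, the sequencing of DNA precipitated with an antibody to a factor, in neural progenitors derived from mouse embryonic stem cells by 2 days in suspension and 3 days with 500 nM retinoic acid and 160 to 800 nM of a Smoothened agonist, which turns on hedgehog signalling. Nkx2.2 was precipitated in both replicates from the Rosa26-Gli1FLAG line, a derivative of YFP3.1 that carries a tagged Gli1 at the Rosa26 locus, whereas Nkx6.1 and Olig2 were precipitated from YFP3.1 in replicate 1 and from Rosa26-Gli1FLAG in replicate 2. These lines have a mixed strain background, with 129 Sv, C57BL6/J and Swiss Webster in it. Gli3 was profiled in 1 library with an anti-FLAG antibody, in cells that also received retinoic acid but no agonist, made from a V6.5 line with a 3xFLAG-Avi tag at the start codon of Gli3 (C57BL/6 X 129/sv). The factor, the line and the culture therefore cannot be told apart in any comparison with Gli3. The series has 13 libraries, 7 from ChIP and 6 from input chromatin, with 2 ChIP libraries for each ventral factor. No RNA was measured, so the ventral identity of the cells was not checked against marker genes here.

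Each factor came as 1 list of peaks of 300 bp, with 5551 peaks for Nkx2.2, 4094 for Nkx6.1, 11747 for Olig2 and 1888 for Gli3, so replicates cannot be compared at the level of peaks. Each ventral factor also came with a table of read coverage up to 2000 bp on each side of every peak, in 3 blocks that name no library. Coverage is given below in the units of these tables as its mean within 250 bp of a peak's centre. Its scale and the depth behind it are unknown, and differences in size were taken within 1 block of 1 table only. Across blocks and tables, ranks, positions of the highest value, directions of a difference and equal values were set side by side. At 86 pairs of Nkx6.1 and Olig2 peaks whose offsets line up, block 3 of the 2 tables held equal values at 100% of the offsets, against 4.31% to 18.7% for every other combination of blocks across tables. The labels tie 1 library, the replicate 2 input, to both of these factors. Blocks 1 and 2 had high peak centres in both homeodomain tables and block 3 had low ones. Regions are features of 1 set of libraries and not replicates, so intervals below cover counting or ranking error over regions only, and no test between classes of regions was made. Coordinates are those of mm9. Gene annotation and sequence of that build were not used here, so regions are named by position alone.

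Most of the 316 regions were simple: 306 held 1 peak of each factor, 8 held a second Nkx2.2 peak and 2 held a second Nkx6.1 peak. Altogether they held 324 Nkx2.2 peaks and 318 Nkx6.1 peaks. Their width was 300 to 725 bp with a median of 349 bp. The widest, chr9:100171992-100172716, carried 2 Nkx2.2 peaks and 1 Nkx6.1 peak, with Nkx2.2 coverage of 91.2 in block 1 and 28.7 in block 2, and Nkx6.1 coverage of 12.2 and 16.0. An Olig2 peak lay 122 bp from its edge. Among the other regions with a second peak, chr4:13387456-13388107 had the highest values of Nkx6.1 in block 2, at 22.2, beside 24.9 for Nkx2.2 in block 2. The lowest Nkx2.2 value in block 1 among them was 11.2, at chr11:75465142-75465803, which held 2 Nkx2.2 peaks and had 2.14 in block 2. The remaining 7, chr1:91647362-91647966, chr2:57466752-57467393, chr9:33224157-33224709, chr9:101374927-101375488, chr10:123129508-123130040, chr11:96760597-96761258 and chr12:104552663-104553162, had Nkx2.2 coverage of 16.2 to 48.1 in block 1.

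The centres of Nkx2.2 and Nkx6.1 peaks lay close together, as the rule in part requires, since peaks of 300 bp that overlap have centres under 300 bp apart. The distance between the nearest centres had a median of 48 bp (95% interval of the median 41 to 53 bp) and quartiles of 21 and 92 bp in the 316 regions, beside a median of 53 bp (48 to 58 bp) in the 550 regions with all 3 factors. In 169 of the 316 regions (53.5%) the centres were within 50 bp of each other, against 47.6% of the regions with all 3 factors. The distance was over 200 bp in 12 regions. These values describe the lists and were not tested.

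**Figure D1:**
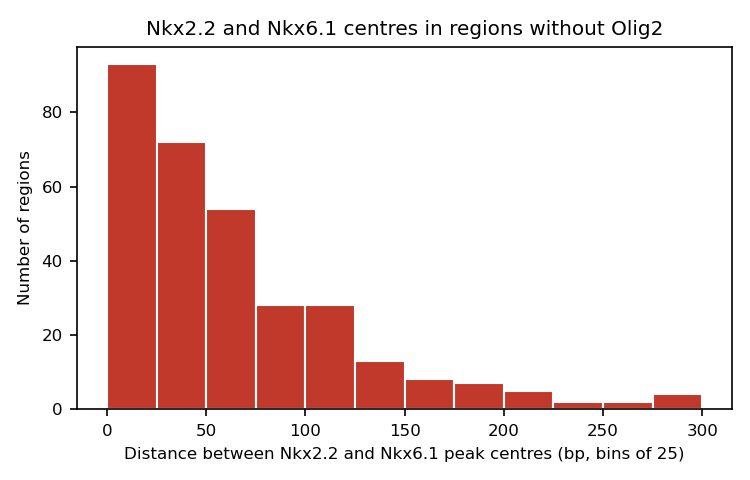
Distance between the nearest Nkx2.2 and Nkx6.1 peak centres (x axis, bp, bins of 25 bp) in the 316 regions without Olig2, with the number of regions on the y axis. The bars are highest at short distances and thin out towards 296 bp, the largest distance, with 12 regions over 200 bp.

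A second measure of position used the coverage itself, as the offset of its highest value within 300 bp of a centre. Between Nkx2.2 and Nkx6.1 this position differed by a median of 46 bp (41 to 54 bp) in block 1 and 41.2 bp (35 to 51 bp) in block 2. The same position differed by 25 bp (25 to 37.5 bp) between blocks 1 and 2 of Nkx2.2 and by 25 bp (25 to 25 bp) between blocks 1 and 2 of Nkx6.1, where 25 bp is the step of the tables. The offset between the factors was thus larger at the median than the offset between the blocks of 1 factor. That order follows in part from the method. The blocks of 1 factor were searched around the same centre, and each factor around its own centre, so the measure is not independent of the centre distance. In the regions with all 3 factors the position differed by 49.5 bp between the factors in block 1 and 42 bp in block 2, with overlapping intervals (45 to 56 bp and 38 to 48.5 bp).

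Few peaks lay near the threshold of 1 bp. The regions just inside it were chr13:93002034-93002629, with 4 bp of overlap between its peaks, chr7:116335030-116335622 with 7 bp and chr15:5572426-5573010 with 15 bp. Just outside it, Nkx2.2 peaks at chr4:102406727-102407026, chr3:138514781-138515080 and chr8:25238161-25238460 missed an Nkx6.1 peak by 32, 36 and 39 bp. In block 1, Nkx2.2 coverage was 56.1, 11.1 and 22.1 at the regions just inside and 34.8, 14.1 and 22.9 at the peaks just outside, so the ranges on both sides overlapped. At most 100 bp separated 5 such Nkx2.2 peaks from an Nkx6.1 peak. The threshold on Olig2 had more regions near it: an Olig2 peak lay within 50 bp of 8 members and within 100 bp of 11.

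Both homeodomain factors had more coverage at the 316 regions than where either was called alone, and less than where all 3 factors were called. Nkx2.2 coverage in block 1 had a median of 22.8 at the 324 Nkx2.2 peaks of these regions (quartiles 16.4 and 33.1), against 16.8 at 3857 peaks of Nkx2.2 alone, 21.2 at 781 peaks with Nkx2.2 and Olig2, and 27.5 at 589 peaks of regions with all 3 factors. In block 2 the order was the same, with 6.26 at the 324 peaks, 3.85 where Nkx2.2 was alone, 5.78 with Nkx2.2 and Olig2 and 9.36 with all 3. On the log2 scale of coverage plus 1, the median at the 316 regions minus that of Nkx2.2 alone was 0.42 in block 1 (95% interval 0.31 to 0.51) and 0.58 in block 2 (0.49 to 0.73). The interval of each such difference, here and below, is that of the median at the 316 regions. The median of the other class was held fixed, so its own error is left out. Minus the regions with all 3 factors it was -0.26 in block 1 (-0.38 to -0.17) and -0.51 in block 2 (-0.60 to -0.36). Since a peak had to be called to enter a class, the classes were chosen on the same libraries, and these differences are descriptions.

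Nkx6.1 gave the same order. Its median coverage in block 1 was 12.1 at the 318 Nkx6.1 peaks of the 316 regions (quartiles 8.76 and 17.1), against 8.97 at 2181 peaks of Nkx6.1 alone, 11.3 at 1021 peaks with Nkx6.1 and Olig2, and 15.5 at 574 peaks of regions with all 3 factors. Block 2 had 6.60 at the 318 peaks, 3.83 with Nkx6.1 alone, 6.38 with Nkx6.1 and Olig2 and 10.2 with all 3. The median at the 316 regions minus that of Nkx6.1 alone was 0.39 in block 1 (0.31 to 0.46) and 0.65 in block 2 (0.55 to 0.79), and minus the regions with all 3 factors it was -0.34 (-0.42 to -0.27) and -0.56 (-0.66 to -0.42). For both factors the median at the 316 regions was thus close to that of the regions where the same factor was called with Olig2 and without the other homeodomain factor. The classes overlapped widely, since the quartiles of neighbouring classes crossed in every block.

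**Figure D2:**
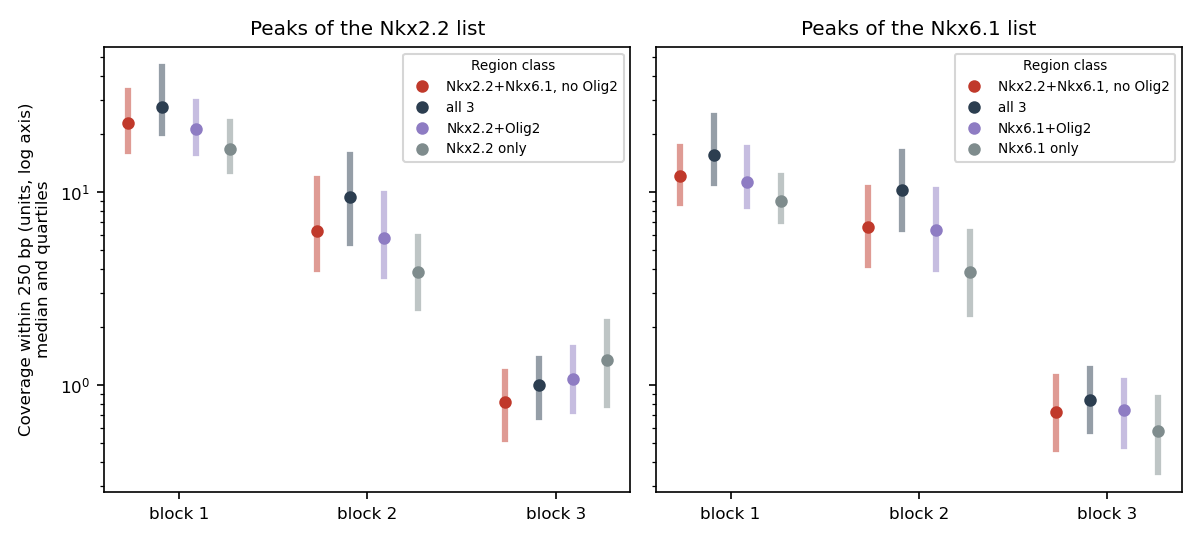
Coverage within 250 bp of the peak centre (y axis, units of the deposited tables, log axis) in blocks 1 to 3 of the Nkx2.2 table (left) and the Nkx6.1 table (right). Points are medians and bars run between the quartiles, for the 316 regions without Olig2 (red), regions with all 3 factors, regions of 1 homeodomain factor with Olig2, and regions of 1 factor alone; in block 3 the Nkx2.2 peaks of the 316 regions have the lowest median, 0.821.

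The width of the peaks was the same as where either factor was called alone. The mean profile at the 316 regions was 225 bp wide at the midpoint between flank and summit in block 1 of Nkx2.2 and 325 bp wide in block 2, equal to the widths at peaks of Nkx2.2 alone, while regions with all 3 factors had 250 and 350 bp. For Nkx6.1 the widths were 250 bp in block 1 and 300 bp in block 2, equal to those where Nkx6.1 was alone and to those in regions with all 3 factors. Mean coverage at the very centre was 67.0 in block 1 of Nkx2.2 at the 316 regions, against 45.6 at peaks of Nkx2.2 alone, and 31.0 in block 1 of Nkx6.1, against 23.4 at peaks of Nkx6.1 alone.

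**Figure D3:**
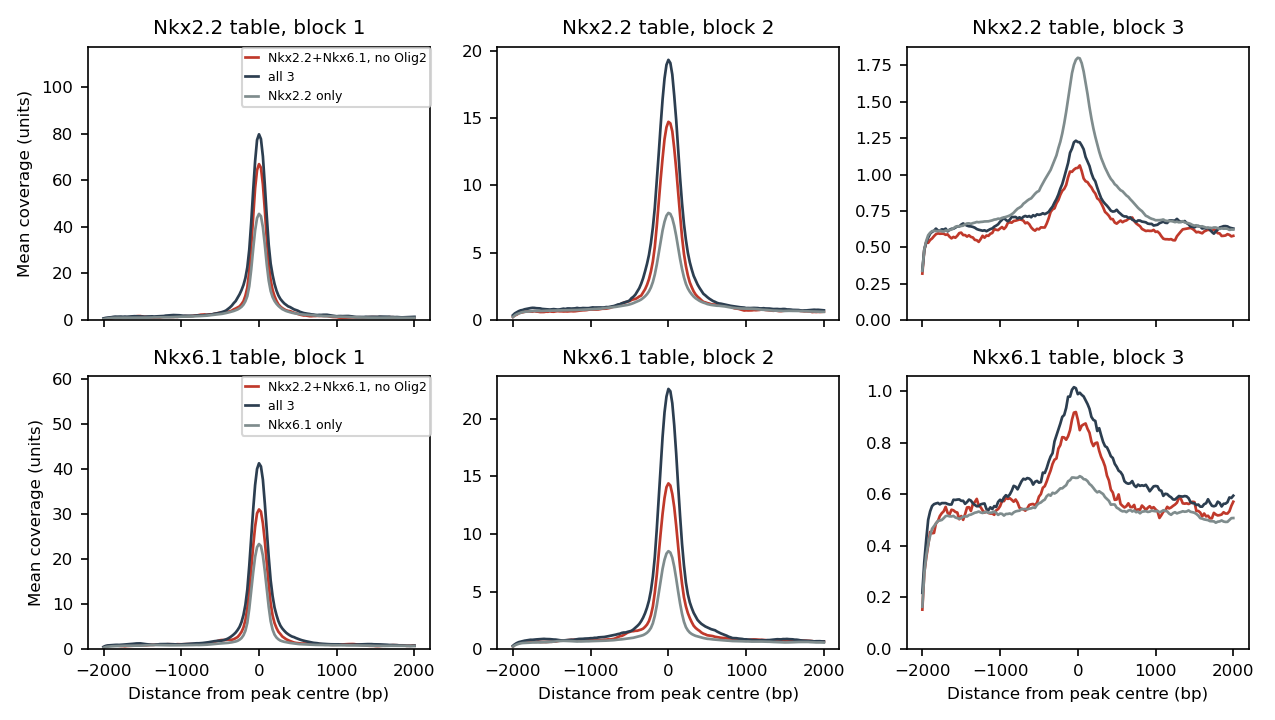
Mean coverage (y axis, units of the deposited tables, each panel on its own scale from 0) against distance from the peak centre (x axis, bp) for Nkx2.2 peaks (top) and Nkx6.1 peaks (bottom) in blocks 1, 2 and 3. At the centre the 316 regions (red) lie between the regions with all 3 factors and the regions of 1 factor in blocks 1 and 2, and in block 3 of Nkx2.2 they peak at 1.05 at the centre against 1.80 for Nkx2.2 alone.

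Block 3 set the 316 regions apart from the regions with Nkx2.2 alone in the opposite direction to blocks 1 and 2. In the Nkx2.2 table its median was 0.821 at the 324 peaks (95% interval 0.745 to 0.885), against 1.00 in regions with all 3 factors and 1.35 where Nkx2.2 was alone (1.32 to 1.41). The median minus that of Nkx2.2 alone was -0.37 on the log2 scale (-0.43 to -0.32). Coverage in block 3 was over 2 times the flank, the mean coverage of the same peak well outside its summit, at 131 of the 324 peaks (40.4%), against 56.7% of peaks of Nkx2.2 alone, where 52.8% of all peaks in the Nkx2.2 list passed that mark. Of the 324 peaks, 9.57% lay in the highest quartile of block 3 over the whole list and 43.8% in the lowest, against 31.3% and 22.7% of peaks of Nkx2.2 alone. Low shares in the highest quartile were not particular to the 316 regions. That quartile held 6.45% of peaks in regions with all 3 factors and 14.3% of peaks with Nkx2.2 and Olig2. The lowest quartile held 28.7% and 25.9% of them, and 42.3% and 46.5% were over 2 times the flank. In the Nkx6.1 table the direction was the other one: the median of block 3 was 0.728 at the 318 peaks, against 0.579 where Nkx6.1 was alone, a difference of 0.13 (0.083 to 0.16). There 115 of the 318 peaks (36.2%) were over 2 times the flank, against 30.4% of peaks of Nkx6.1 alone and 33.8% of all peaks of the Nkx6.1 list. The part that block 3 takes in the coverage differences of blocks 1 and 2 was not tested.

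Across the 316 regions the coverage of 1 factor followed itself from block to block more closely than it followed the other factor in block 1. Spearman's rho over these regions was 0.68 between blocks 1 and 2 of Nkx2.2 and 0.60 between blocks 1 and 2 of Nkx6.1. Between Nkx2.2 and Nkx6.1 it was 0.21 in block 1 and 0.58 in block 2. The regions with all 3 factors gave nearly the same picture, with 0.16 in block 1 and 0.52 in block 2. Blocks 3 of the 2 tables correlated at 0.45 over the 316 regions, and block 3 of Nkx2.2 correlated with blocks 1 and 2 of Nkx2.2 at -0.02 and -0.04. These correlations are descriptions over regions that share libraries, depth and base composition. When each factor's ranks in blocks 1 and 2 were averaged, 102 regions were in the upper part of the ranking, above its median, for both factors, 108 were in the lower part for both and 106 were mixed.

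**Figure D4:**
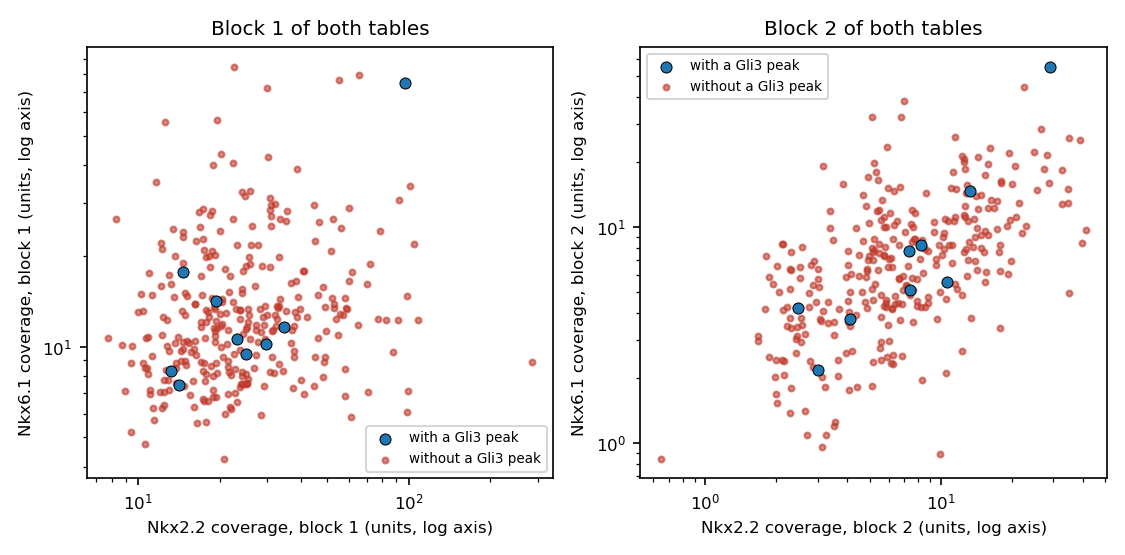
Nkx2.2 coverage (x axis) against Nkx6.1 coverage (y axis) at each of the 316 regions, in block 1 (left) and block 2 (right), in units of the deposited tables on log axes. Blue points are the 9 regions with a Gli3 peak and red points the regions without one; the cloud is wider in block 1 (rho 0.21) than in block 2 (rho 0.58), and 1 of the 9 blue points lies among the highest values of both factors.

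The strongest region for both factors together, by the lower of its 2 factor ranks, was chr2:137530985-137531406. It had Nkx2.2 coverage of 97.1 in block 1 and 29.0 in block 2, and Nkx6.1 coverage of 75.1 and 55.2, the last being the highest of all 318 Nkx6.1 peaks in these regions. Next came chr1:97213608-97213911, whose centres were 4 bp apart, with 92.5 and 28.1 for Nkx2.2 and 30.7 and 21.5 for Nkx6.1. The region chr5:15508256-15508754 had its centres 199 bp apart and yet reached 65.7 and 22.5 for Nkx2.2 and 79.3 and 44.2 for Nkx6.1. High coverage of both factors thus occurred with near and with distant centres. The other 7 of the highest 10 were chr6:94616075-94616423, chr10:9277475-9277840, chr9:63630714-63631113, chr11:85627710-85628063, chr13:93002034-93002629, chr9:90595673-90595985 and chr4:13387456-13388107, with Nkx2.2 coverage of 40.8 to 104.9 and Nkx6.1 coverage of 17.8 to 34.0 in block 1. One of them, chr13:93002034-93002629, is also the region with the smallest overlap, 4 bp.

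At the other end, chr14:34496980-34497335 was weak for Nkx2.2, with 8.30 in block 1 and 1.86 in block 2, and had Nkx6.1 coverage of 26.6 in block 1 but 2.50 in block 2. The region chr14:88810912-88811266 had 8.71 and 1.93 for Nkx2.2, beside 10.2 and 5.41 for Nkx6.1. In chr16:46668698-46669006, chr10:108820914-108821298 and chr17:27312390-27312713 it was Nkx6.1 that was weak, with 5.19 to 6.31 in block 1 and 1.09 to 1.82 in block 2. All 5 lay over 100 kb from the nearest Olig2 peak.

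Some regions ranked high for 1 factor and far lower for the other. The highest Nkx2.2 value in block 1, 286.2, was at chr17:3274682-3275008, which had 35.1 in block 2 and where Nkx6.1 coverage was 8.87 and 4.92. At chr19:48800580-48800936 Nkx2.2 had 98.9 and 17.9, and Nkx6.1 had 6.09 and 3.39. At chr7:105827272-105827633 Nkx2.2 had 37.4 and 9.96, and Nkx6.1 had 7.30 and 0.886. In these 3 regions Nkx6.1 lay below its median in both blocks while still being called. Nkx6.1 ranked high against Nkx2.2 at chr10:115825901-115826217, with Nkx6.1 coverage of 55.5 and 23.3 and Nkx2.2 coverage of 12.6 and 5.92, at chr1:91837931-91838246, where Nkx6.1 had 35.2 and 32.1 and Nkx2.2 had 11.7 and 6.78, and at chr9:19426242-19426711, where Nkx6.1 had 22.0 and 14.0 and Nkx2.2 had 12.2 and 4.69.

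Gli3, which the rule did not use, had a peak at 9 of the 316 regions, or 2.85% (95% Wilson interval 1.51% to 5.32%), against 7.17% (6.39% to 8.03%) of the regions with Nkx2.2 alone and 0.830% (0.525% to 1.31%) of the regions with Nkx6.1 alone. The share was 12.5% (10.0% to 15.6%) where all 3 factors were called, 10.2% with Nkx2.2 and Olig2, 4.55% with Nkx6.1 and Olig2 and 2.10% with Olig2 alone. Of all 17913 regions 3.82% had a Gli3 peak, and the interval of the 316 regions includes that value. The interval lies below the shares of the regions with Nkx2.2 alone and with all 3 factors, and above that of the regions with Nkx6.1 alone.

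Since block 3 differed between these classes, the share with Gli3 was set out by quartile of block 3 over the whole Nkx2.2 list, whose edges are 0.745, 1.20 and 1.90. In the lowest quartile 1 of 142 Nkx2.2 peaks of the 316 regions had a Gli3 peak (0.704%, interval 0.124% to 3.88%), against 1.26% of peaks of Nkx2.2 alone. The second quartile had 3 of 105 (2.86%) against 3.90%, the third 2 of 46 (4.35%) against 8.38%, and the highest 3 of 31 (9.68%, 3.35% to 24.9%) against 12.8%. Within each quartile the share of the 316 regions was below that of Nkx2.2 alone, while its interval held the value for Nkx2.2 alone. With only 1 to 3 peaks with Gli3 in a quartile, these intervals are too wide to tell the 2 classes apart or to show them equal. In the regions with all 3 factors the shares were 7.69%, 13.4%, 15.7% and 10.5% by quartile, and in the lower 3 quartiles they lay above the interval of the 316 regions, whose upper bounds there were 3.88%, 8.07% and 14.5%. In the 316 regions and at Nkx2.2 alone the share with Gli3 was higher in each higher quartile of block 3, with wide intervals in the 316 regions. The other classes did not rise at every step. With Nkx2.2 and Olig2 the shares were 6.93%, 5.71%, 15.3% and 17.0%, and with all 3 factors the highest quartile was below the third. The part of block 3 in the lower share of the 316 regions was not tested.

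**Figure D5:**
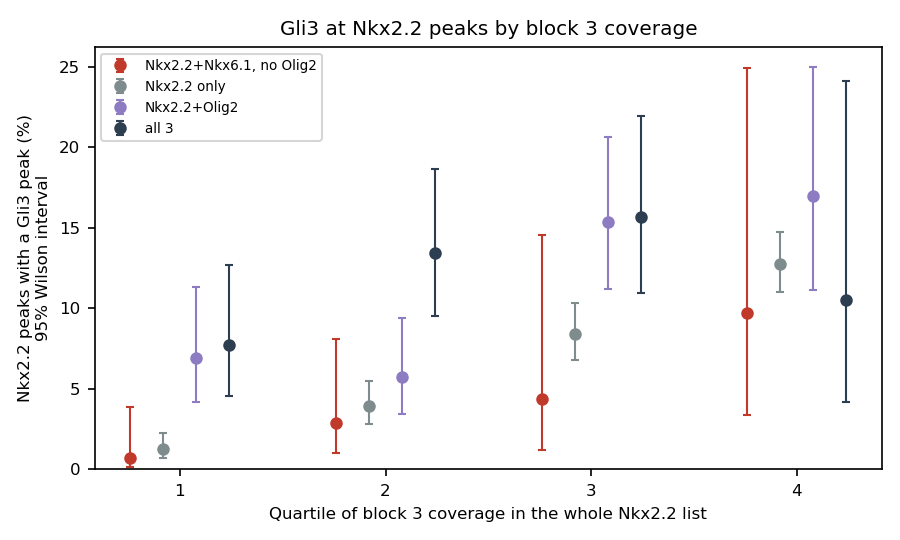
Percent of Nkx2.2 peaks with a Gli3 peak (y axis) by quartile of block 3 coverage in the whole Nkx2.2 list (x axis, 1 the lowest), with 95% Wilson intervals, for the 316 regions without Olig2 (red), Nkx2.2 alone, Nkx2.2 with Olig2, and all 3 factors. The red points climb with the quartile, from 0.704% to 9.68%, and the interval of the highest quartile, which holds 31 peaks, is wide.

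The 9 regions with Gli3 were of all strengths. The strongest of all regions, chr2:137530985-137531406, was one of them, and its Gli3 centre lay 15 bp from the Nkx2.2 centre and 137 bp from the Nkx6.1 centre. In chr3:34987089-34987573 the Gli3 centre was 26 bp from Nkx2.2 and 159 bp from Nkx6.1, with Nkx2.2 coverage of 23.1 and 8.20 and Nkx6.1 coverage of 10.6 and 8.22 in blocks 1 and 2. In chr6:52114987-52115368 it was 15 bp from Nkx2.2 and 67 bp from Nkx6.1. These 3 regions are also the ones among the 9 with an Olig2 peak close by, at 381, 19 and 296 bp, while the other 6 lay 28286 bp or more from one. Of those 6, chr10:61608744-61609090 and chr19:6334777-6335086 had Gli3 within 60 bp of both centres. At chr12:85931197-85931498 the Gli3 centre was 233 bp from Nkx2.2 and 235 bp from Nkx6.1, so the Gli3 peak met the edge of that region. It was nearer to Nkx6.1 than to Nkx2.2 at chr14:25928183-25928597, with 166 and 281 bp, and at chr15:98628629-98629079, with 79 and 230 bp.

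The ninth, chrX:166424797-166425158, stood apart by its block 3. Its value there was 4.46 in the Nkx2.2 table, the highest of the 324 Nkx2.2 peaks in these regions, and 9.56 in the Nkx6.1 table, the highest of all 4094 Nkx6.1 peaks. Its Nkx6.1 coverage was 8.30 in block 1 and 14.6 in block 2, and its Nkx2.2 coverage was 13.2 in block 1 and 13.3 in block 2.

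Although no Olig2 peak touched them, the 316 regions were nearer to Olig2 peaks than the regions with Nkx2.2 alone. The gap to the nearest Olig2 peak had a median of 36.5 kb (28.3 to 47.9 kb), against 59.4 kb (56.1 to 62.7 kb) for Nkx2.2 alone and 44.6 kb (39.9 to 48.1 kb) for Nkx6.1 alone. An Olig2 peak lay within 10 kb of 78 of the 316 regions (24.7%, 20.3% to 29.7%), against 16.8% with Nkx2.2 alone and 22.7% with Nkx6.1 alone, where 19.2% of all regions without Olig2 had one that near. Within 0.5 kb the counts were 25 of 316 (7.91%, 5.42% to 11.4%), against 2.78% with Nkx2.2 alone and 5.44% (4.56% to 6.47%) with Nkx6.1 alone. For the shares within 10 kb and 0.5 kb, the intervals of the 316 regions lie above the values for Nkx2.2 alone. For the median gap, the interval lies below the value for Nkx2.2 alone. All these intervals overlap those for Nkx6.1 alone. The nearest cases were chr16:69980066-69980466 at 11 bp, chr18:55295886-55296258 at 16 bp and chr3:34987089-34987573 at 19 bp.

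The Olig2 table reaches 30 of the 316 regions, because it holds coverage around Olig2 peaks only. For the 286 others Olig2 coverage was not analysed here, so the absence of Olig2 there is the absence of a peak in the list. At 14 regions that lay 300 to 600 bp from an Olig2 centre, median Olig2 coverage was 6.54 in block 1 and 9.41 in block 2, against 1.59 and 1.37 at the mirror position, the same distance on the other side of the Olig2 centre. It was above the mirror position at 12 of the 14 regions in block 1 and at 13 in block 2. At 16 regions farther out the medians were 4.21 and 5.85, against 1.07 and 1.11 at the mirror position, and 15 of 16 were above it in both blocks. Most of the regions that could be read thus had Olig2 coverage above the mirror position and below that of the Olig2 centres themselves, where the medians for the nearer 14 were 28.6 and 17.5. Regions with Nkx2.2 alone or Nkx6.1 alone showed a side difference in the same direction at 300 to 600 bp. The medians were 4.16 and 4.68 at 71 regions of Nkx2.2 alone, against 1.46 and 1.17 at the mirror position. At 86 regions of Nkx6.1 alone they were 4.21 and 4.82, against 1.45 and 1.11. These regions lay farther from the Olig2 centre, at medians of 438 and 412.5 bp against 378 bp for the 14, so sizes are not comparable.

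In 1 of the 30 regions the Olig2 coverage was above that of the nearest Olig2 centre in both blocks. At chr2:137530985-137531406, the strongest region for both homeodomain factors, Olig2 coverage was 45.8 in block 1 and 70.4 in block 2, whereas the centre of the nearest Olig2 peak, 742 bp away, had 14.2 and 17.6. Block 3 was 1.03 at the region. Coverage of all 3 ventral factors was thus high there in both blocks, although the list has no Olig2 peak on it. At chr16:69980066-69980466, the nearest region to an Olig2 peak, Olig2 coverage was 2.77 and 1.64, against 23.7 and 8.68 at the Olig2 centre. The 16 farther regions otherwise had at most 17.8 in block 2.

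The 316 regions were spread over the genome, with no Y region. The highest counts were on chromosomes 9 and 12, with 27 each (8.54%, 5.94% to 12.2%), and chromosome 8, with 26 (8.23%, 5.68% to 11.8%). Of all Nkx2.2 and Nkx6.1 peaks, 6.27% and 5.08% were on chromosome 9 and 4.97% and 5.84% on chromosome 12. Chromosome 8 held 5.8% and 5.5% of them. The intervals of chromosomes 9 and 8 include the Nkx2.2 share, and that of chromosome 12 lies above both shares. These chromosomes were picked as the highest, and no test was made. Only 4 regions lay within 10 kb of another of the 316. They form the pair chr12:85832224-85832545 and chr12:85841775-85842155, 9229 bp apart, and the pair chr6:52113595-52114078 and chr6:52114987-52115368, 908 bp apart. An Olig2 peak lies between the 2 regions on chromosome 6, its centre 704 bp from the first region and 637 bp from the second, with Olig2 coverage of 25.6 in block 1 at that centre. The second of them carries a Gli3 peak.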

How the data were processed

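ChIP-seq data of 3 ventral factors and Gli3 were analysed as the authors deposited them. Bowtie2 2.2.4, HOMER and mm9 are named, per the submitters' processing notes. The settings behind each file and any pooling of replicates are not given in the sources used here. Peak lists, as deposited, hold chromosome, start and end, with no score, and starts are printed 1-based. The deposited tables hold coverage (signal) at offsets of 25 bp up to 2000 bp on each side, per the file headers, in 3 blocks that name no library. Their scaling is not given and depth is unknown, although the low values of each block are whole multiples of 1 step (within 0.02 of a step) in 100% of cases. A table row was matched to the same line of its list; overlapping profiles of peaks within 1000 bp of each other had median correlations of 0.970 to 0.998. Columns of other samples left out numbered 0.

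Peaks sharing 1 bp were joined. Mean coverage was taken over 250 bp to each side of the centre, and for the flank at 1500 to 1750 bp on each side, and differences of medians were taken on log2(coverage + 1). In regions of 2 peaks of 1 factor, the nearest pair of centres was used. Median intervals came from order statistics and shares have Wilson intervals, both at 95%. The joining of peaks, the gap to the nearest peak, the median difference and the interval of a single median were tested on simulated data. The interval of a difference and the other steps were not. Python 3.11.15, numpy 2.4.6, scipy 1.17.1, pandas 2.3.3 and matplotlib 3.10.9 were used.

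The regions, classes and lists were chosen with earlier results of these data known. The named regions were the 10 highest and 5 lowest by the lower of their 2 factor ranks (mean of the ranks in blocks 1 and 2), all with Gli3, all with 3 or more peaks, the 3 nearest to Olig2 and the 3 with the most of each factor against the other by rank; those at the thresholds, the paired regions and single extremes were chosen after their values were seen, as were the split by block 3 quartile, the flank, the mirror position and the comparison of coverage summits. Motif counts, sequences and nearest genes, which were planned, need a genome and annotation of mm9 and were not analysed here. Libraries could not be left out in turn, since blocks name none. No p-value was computed.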

Additional observations from a re-analysis of the deposited data

How the results depend on the processing

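Of 37 alternatives 10 moved a value beyond its spread and 1 turned its direction. The turned one is the difference in the Nkx2.2 table between the 316 regions and Nkx2.2 alone. It is 0.42 in block 1, 0.58 in block 2 and -0.37 in block 3, and the cause was not tested. No block names a library and block 3 had low peak centres, so its values are not known to measure binding of either factor. Against regions with all 3 factors, coverage in the Nkx2.2 table differed by -0.51 in block 2 and -0.14 in block 3. Coverage in the Nkx6.1 table minus that of Nkx6.1 alone was 0.65 in block 2, 0.13 in block 3 and 0.29 in a window of 100 bp. Minus regions with all 3 factors it was -0.56 in block 2 and -0.091 in block 3. An Olig2 peak lay within 2 kb of 12.0% of the regions and within 50 kb of 56.7%. Other ways of joining peaks or of defining the absence of Olig2 gave 238 to 330 regions in place of 316. The share with Gli3 ranged from 2.09%, over regions more than 1000 bp from any Olig2 peak (chosen after seeing the data), to 3.94%, where 150 bp of overlap was needed to join peaks. No paired analysis was possible because blocks name no replicate and no result comes from a test. Unknown depth limits every coverage value, and peak lists without scores allow no stricter threshold.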

Other observations

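Another of the 316 regions lay within 10 kb of 4 of them (1.27%). A region of Olig2 alone lay within 10 kb of 55 (17.4%), one of Nkx2.2 alone within 10 kb of 25 (7.91%), one of Nkx6.1 alone within 10 kb of 17 (5.38%) and one with all 3 factors within 10 kb of 9 (2.85%). The classes differ in size, from 316 regions to 9342, so these shares are not comparable between classes.

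A stretch of chromosome 6, chosen after its values were seen, held 3 of the 30 regions that the Olig2 table reaches. Olig2 coverage was 5.38 in block 1 and 9.12 in block 2 at chr6:52102611-52102942, against 2.61 and 5.14 at its mirror position. At chr6:52114987-52115368 it was 6.74 and 8.48, against 4.07 and 5.50. At chr6:52113595-52114078 it was 2.58 and 4.97, below the 7.37 and 9.41 of its mirror position. The mirror positions of this pair fall close to each other's regions, since their Olig2 centre is the same and lies 704 and 637 bp from them.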
